A study of Mus musculus with 745 samples.

Results

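Among single brain endothelial cells of the mouse, 75 were selected for high transcript levels of immediate early and heat shock genes, 25 from each of the 3 sets in which the cells were labelled. The selection used a score, the mean of log2(CPM + 1) over Fos, Junb, Jun, Egr1, Nr4a1, Ier3, Hspa1a and Hspa1b, where CPM is a cell's count of a gene scaled to a total of 1000000 counts. The 25 highest-scoring cells of a set were its members, and the other 670 cells were the comparison. Members made up 11.1%, 9.69% and 9.54% of the cells of Young1, Young2 and AY_Y3. These values chose the cells, so the levels of the 8 genes are given below as a description and were not tested.

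All cells were primary brain endothelial cells of mice aged 3 months, and each sample was 1 cell. The labels name no treatment, strain, sex or genotype. Brains were dissociated with a Miltenyi neural dissociation kit and the cells were sorted by FACS, and the gate markers are not stated in the sources used. The titles name the sets Young1, Young2 and AY_Y3. They do not tell if sets stand for animals, pools or plates, so the spread between sets may be technical. Every cell had been dissociated and sorted, so states present in the vessel and states that arose during preparation cannot be told apart.

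Immediate early genes are transcribed within minutes of a stimulus from factors that are already present in the cell, without new protein synthesis. Fos, Jun and Junb encode subunits of the AP-1 transcription factor, Egr1 a zinc finger factor and Nr4a1 an orphan nuclear receptor. Their products switch on a later wave that includes phosphatases, RNA decay factors and other proteins that shut the response down again. Hspa1a and Hspa1b encode near-identical inducible chaperones of the Hsp70 family, driven by heat shock factor 1. In brain endothelium these genes respond to shear stress, growth factors and inflammatory signals, and they are also known to be induced by enzymatic tissue dissociation.

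The score declined along the cells of each set without a gap at the 25th cell. The highest member scored 10.8 in Young1, 10.04 in Young2 and 9.33 in AY_Y3, while the median of the other cells was 2.49, 1.82 and 1.77. The 25th cell, the last one inside, scored 6.05, 4.82 and 3.93 in these sets, and the 26th, the first one outside, scored 6.02, 4.81 and 3.92. The same rank thus stood for different levels. Of the other cells, 51 in Young1 and 19 in Young2 scored above the last member of AY_Y3. The 75 highest cells over all sets together would have taken 43 cells from Young1, 20 from Young2 and 12 from AY_Y3, and 57 of them were members here. The members are the upper end of a continuous range and not a separate class.

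**Figure D1:**
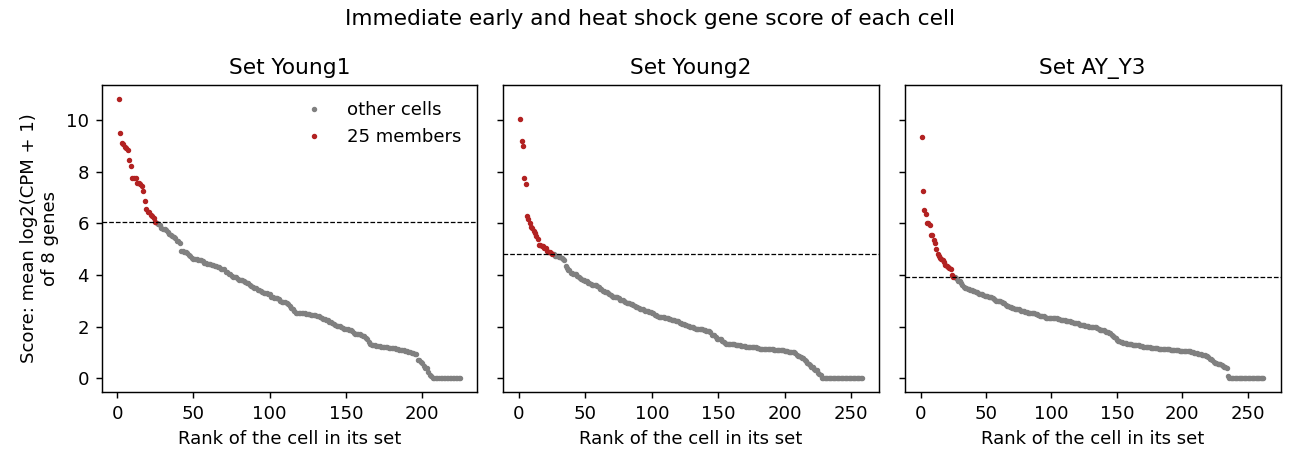
Score of each cell (mean log2(CPM + 1) of 8 genes, vertical axis) by its rank within its set (horizontal axis), with the 25 members of each set in red, the other cells in grey and the score of the 25th cell as a dashed line. Scores decline without a gap at the line, which lies at 6.05 in Young1, 4.82 in Young2 and 3.93 in AY_Y3.

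A member had a count for 4 to 8 of the 8 score genes with a median of 5, and another cell for 0 to 7 with a median of 2. Fos was the gene that separated the groups most in level. The pooled CPM, the summed counts of a group's cells scaled to the same total, was for Fos 3479, 1528 and 631 in members of the sets in this order, and 154.4, 1.70 and 0.977 in the other cells. Fos had a count in 20, 17 and 12 of the 25 members of these sets, or 49 of 75, and in 42 of the 670 other cells. The highest single member reached 19790 CPM of Fos, and in AY_Y3 the median member had none. Junb had a count in 81.3% of members and 20.9% of other cells, Jun in 92% and 59.9%, and Nr4a1 in 72% and 21.2%. Egr1 was unevenly spread, with a count in 18 members of Young1, 7 of Young2 and 4 of AY_Y3. Ier3, a stress-inducible regulator of survival, differed least, with a count in 56% of members and 35.97% of other cells.

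Hspa1a had a count in 23 of 25 members in each set and in 285 of the 670 other cells. Its pooled CPM was 3225, 2065 and 867 in members and 676, 258.8 and 217.4 in the other cells. Hspa1b stood far lower, at 63.04, 63.7 and 22.02 CPM in members and 20.03, 9.23 and 4.41 in the other cells. The coding sequences of this pair are so alike that reads can be assigned to either gene, so the split between them is uncertain. The Hspa1a promoter, shown because Hspa1a was the score gene found in the most members together with Jun, carries a match to the heat shock element core GAANNTTC, which reads the same on both strands. In the window of 250 bases before to 50 after the start, 3 of the 7 score genes with a RefSeq entry held this motif (Jun, Hspa1a and Hspa1b, 42.9%), against 9.04% of 27025 genes. Hspa1a and Hspa1b are near-identical copies, so these are not independent matches. The other arrangement of the element, TTCNNGAA, was in none of the 7 and in 9.6% of all. The bases below are the upstream part around the match, chr17:34972193-34972320 on the minus strand (RefSeq, GRCm38.p6), with the match in capitals, ending 97 bases before the start.
Hspa1a: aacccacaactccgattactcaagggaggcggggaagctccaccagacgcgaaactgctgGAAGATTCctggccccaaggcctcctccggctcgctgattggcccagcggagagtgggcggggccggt

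The members were not uniform in which of these genes they carried. A count of Hspa1a or Hspa1b together with one of Fos or Egr1 was found in 52 of 75 members. Another 5 had Fos or Egr1 without either heat shock gene, and 18 had a heat shock gene with no count of Fos or Egr1. These 18 were 1 cell of Young1, 6 of Young2 and 11 of AY_Y3. The other early genes of the score were less uneven, with Nr4a1 in 72% of members of Young1 and 76% of AY_Y3, Ier3 in 52% and 60%, Junb in 96% and 76%, and Jun in 92% and 84%. Over the 25 members per set, Fos and Hspa1a had Spearman's rho values of 0.12, 0.35 and 0.29 in the 3 sets, in the same order as above, with 0.40, 0.49 and 0.62 for Hspa1a and Hspa1b. Fos and Nr4a1 had rho values of -0.05, 0.03 and -0.09, and Fos and Ier3 of -0.28, -0.11 and -0.45. The choice of cells by a sum over these genes lowers such correlations, and depth is shared by all genes of a cell.

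The depth of members and other cells was similar in kind but not equal. Median counts per member were 855576, 808265 and 486977 in Young1, Young2 and AY_Y3, against 749228, 704974 and 398257 per other cell. Thinned to 50000 counts a cell, members had medians of 1540, 1848 and 1916 genes and other cells 1572.5, 1677 and 1844. The mitochondrial share of counts had medians of 3.03% to 3.68% in members and 3.31% to 3.99% in the other cells. Summed endothelial markers, among them Cldn5 and Pecam1, lay at 26116 to 30366 CPM in members and 27585 to 30909 in the other cells, so members carried the transcripts of the labelled cell type. The markers did not move together. Of the 15 on this list, 3 were higher in members in all 3 sets, with Pecam1 among them. Another 6 were lower in all 3 sets, with Cldn5 and Kdr among them, whose values are given below. Summed oligodendrocyte markers lay at 44.2 to 127.6 CPM in members and 50.6 to 1233 in the other cells, and microglia and macrophage markers at 21.6 to 149.8 and 58.5 to 81.4. Summed neuron, fibroblast, erythroid and lymphocyte or neutrophil markers stayed at 31.4 CPM or less in both groups.

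Markers of other cells of the vessel wall and its surroundings were present at low levels. Pericyte markers summed to 1047, 243.4 and 1009.5 CPM in members of Young1, Young2 and AY_Y3 and to 1274, 1399.7 and 1263 in the other cells, with 1 of 10 at 0 in members. Smooth muscle markers summed to 545, 513 and 289 CPM in members and 207.5, 318 and 248.4 in the other cells, with 1 of 10 at 0 in each group. Astrocyte markers summed to 794, 1485 and 1557 CPM in members and 541, 767 and 739 in the other cells, with none of 10 at 0. Most of the astrocyte sum in members was Clu, clusterin, at 514, 966 and 1405 CPM, a gene that arterial endothelium also expresses. In members 5, 6 and 11 cells per set were above 2000 CPM on the summed markers of any other cell type, and 4, 3 and 2 when Clu was not counted. With Clu counted these were 20%, 24% and 44% of members, beside 18%, 24.9% and 22.8% of the other cells of the same sets. That share was higher in members of AY_Y3 than elsewhere. When Clu was not counted, 24, 43 and 38 of the other cells were above 2000 CPM. Members of AY_Y3, at 2 of 25, then no longer stood above the other cells of their set. The part of cells above 2000 CPM in the results below was not tested beyond the values given without these cells.

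For the remaining genes, counts were summed over the members and over the other cells of each set, and the 6 sums were compared with edgeR's quasi-likelihood test with the set as a block, over 9224 genes without the 8 score genes. No gene passed a Benjamini-Hochberg adjusted p of 0.05 in either direction (percent called 0.0 each way). At an unadjusted p under 0.05 there were 533 genes (5.78%), 279 higher (3.02%) and the rest lower (2.75%). DESeq2 on the same sums called 350 higher (3.79%) and 564 lower (6.11%), and limma on mean log2 values called 44 higher (0.477%) and 36 lower (0.39%). The edgeR fit had 2 residual degrees of freedom. In simulated counts with these library sizes it recovered 97 of 99 genes changed 4-fold and 41 of 99 changed 2-fold. The simulated difference was the same in every set and the spread was fixed, so this recovery does not give the power in the real sums. In the real sums Nr4a2 had a log2 fold change of 2.68 with an adjusted p of 0.693 in edgeR. Members and other cells came from the same cells that were scored, so genes that vary with the score differ between them to some degree by construction.

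The values of the sets give a second description. A gene is called separated here when its pooled CPM in all 3 groups of members lay above, or all 3 below, the values of all 3 groups of other cells. Of the 9224 genes 4.72% were separated upward and 12.2% downward, and the median log2 fold change over all genes was -0.17. Counts for lists of genes are to be read against these shares. Where a gene was lower, fewer cells with its transcript and less of it per cell cannot be told apart from a sum.

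Several genes of the same early response outside the score were higher in members in all 3 sets, though none passed the adjusted threshold. Dusp1, a phosphatase that inactivates MAP kinases, was at 4041, 1447 and 1258 CPM in members of Young1, Young2 and AY_Y3 and at 1383, 549 and 452 in the other cells. The sets differed from each other as much as the groups did, but within each set the members were above the other cells. Its log2 fold change was 1.61 ± 0.12 (SE), with an unadjusted p of 3.82e-05 and an adjusted p of 0.353 in edgeR. Dusp1 had a count in 86.7% of members and 61.2% of other cells, or 84% and 58.2% after thinning each cell to 50000 counts. Zfp36, which encodes the RNA decay factor tristetraprolin, was at 708, 396 and 123.9 CPM in members against 138.7, 67.8 and 67.4. Gadd45g, a growth arrest and stress kinase regulator, was at 524, 485 and 275 CPM in members and 160.9, 111.9 and 52.3 in the other cells, with no overlap between the groups.

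Of the 22 tested early nuclear factors, 18 had a log2 fold change above 0 and 4 below. Of all 9224 tested genes, 3755 were above 0 and 5469 below. The genes described here were chosen for the smallest p. Nr4a2, a relative of Nr4a1, was at 609, 227.2 and 329.6 CPM in members and 57.6, 83.8 and 48.7 in the other cells, a log2 fold change of 2.68 ± 0.45. Ier2, a short-lived nuclear protein, was at 1341, 637 and 275 CPM in members and 296, 220.7 and 163.3 in the other cells. Btg2, an antiproliferative cofactor of mRNA deadenylation, was at 1884, 1089 and 405 CPM against 583, 335 and 250.1. For Ier2 and Btg2 the lowest group of members, AY_Y3, lay below the highest group of other cells, Young1, although members were higher within each set. Klf10, a zinc finger repressor induced by TGF-beta, was at 132.2, 302 and 197.05 CPM in members and 66.9, 78.9 and 108.5 in the other cells, and 34.1% of its counts in members came from a single cell. Fosl2, an AP-1 subunit, was at 164.5, 134.4 and 202.2 CPM in members and 54.7, 79.4 and 26.6 in the other cells.

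Genes of secreted and surface products included the steadiest values over the sets. Adamts1, a secreted metalloprotease that cleaves matrix proteoglycans, was at 457, 455 and 512 CPM in members and 115.8, 199.3 and 68.4 in the other cells. It had a count in 61.3% of members and 27.8% of other cells after thinning, and in 70.7% and 32.5% before. Apold1, an endothelial gene that responds rapidly to hypoxia and activity, was at 1734, 1067 and 965 CPM in members and 389, 654 and 300.4 in the other cells. Plat, the tissue plasminogen activator, was on the same list and lay the other way, at 504, 719 and 711 CPM in members and 1206, 1663 and 1457 in the other cells. Fkbp4, a co-chaperone of steroid receptors, was also lower in members, at 206.2, 181.8 and 244.3 CPM against 293, 307 and 391.7. The unadjusted p-values of these 12 genes, chosen as those with the smallest p on the early response and chaperone lists, ran from 3.82e-05 for Dusp1 to 0.0454 for Fkbp4 in edgeR, and none passed after adjustment.

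**Figure D2:**
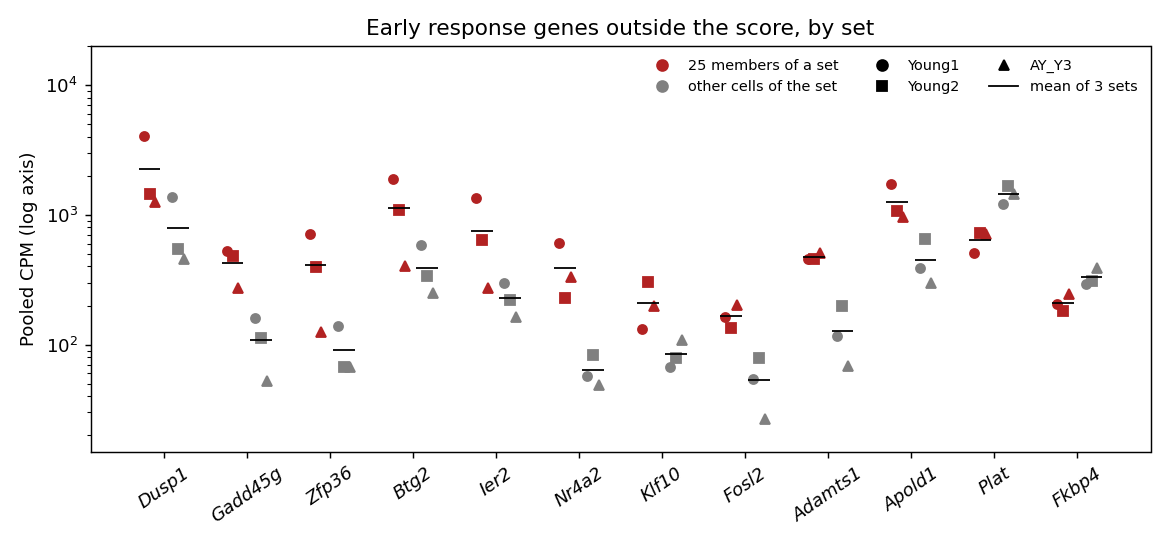
Pooled CPM (vertical log axis) of 12 early response genes outside the score in the 25 members of each set (red) and the other cells of the set (grey), with 1 symbol per set and the mean of the 3 sets as a black line. Members lie above the other cells of their own set for the first 10 genes, from Dusp1 at 4041, 1447 and 1258 CPM to Apold1, and below for Plat and Fkbp4.

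Only part of each early response list was separated, beside 4.72% of all tested genes upward and 12.2% downward. Of 32 tested feedback inhibitors, 7 were separated upward and 1 downward (Spry1), with a median log2 fold change of 0.58. Of 12 secreted and surface early genes, 4 were separated upward (Hbegf, Adamts1, Apold1 and Thbd) and 2 downward (Ctgf and Plat), with a median of 0.66. Of 22 other early nuclear factors, 3 were separated upward (Nr4a2, Klf4 and Klf10) and 1 downward (Cebpd), with a median of 0.48. Of 8 further AP-1 and ATF genes, 2 were separated upward (Fosl2 and Atf4) and none downward, with a median of 0.35. None of these list members passed edgeR's adjusted threshold. DESeq2 called 8 feedback inhibitors, 4 secreted and surface genes, 8 nuclear factors and 3 AP-1 and ATF genes higher, beside 3.79% of all genes. It called 1 secreted and surface gene lower, beside 6.11% of all genes.

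Several genes that usually accompany Fos were sparse. Fosb was at 103.2, 26.7 and 3.09 CPM in members and 4.90, 0.498 and 1.21 in the other cells. It was not tested because fewer than 5% of cells had a count, 13.3% of members and 1.64% of other cells. A single cell gave 52.6% of its counts in members. Atf3, a stress-induced repressor, was at 548, 185.1 and 74.4 CPM in members and 32.8, 89.4 and 53.4 in the other cells, with a count in 21.3% of members. Egr2 and Egr3 had a count in 2.67% and 4% of members. Klf2 and Klf4 encode flow-responsive factors of endothelium. Klf2 was at 388, 478 and 263 CPM in members against 355, 323 and 249.2, where the groups overlapped. Klf4 was separated upward, at 388, 398 and 443 CPM against 281, 316 and 266, with an adjusted p of 0.76 in edgeR. Klf2 had a count in 98.7% of members and 97.3% of other cells.

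Most chaperones outside the score were not separated between members and other cells. The same held for most of all tested genes, of which 4.72% were separated upward and 12.2% downward. Of 38 tested chaperone and heat shock genes, 3 were separated upward (Dnaja4, Dnajb6 and Hsf1) and 1 downward (Fkbp4), with a median log2 fold change of 0.18. Hspb1, a small heat shock protein, was at 862, 683 and 403 CPM in members and 495, 533 and 497 in the other cells. Dnajb1, the Hsp40 partner of Hsp70, was at 459.7, 302 and 200.9 CPM against 178.7, 252.5 and 245.3. Hsp90aa1, the inducible Hsp90, was at 436, 304 and 253.3 CPM against 226.5, 278 and 274. All 3 were higher in members of Young1 and Young2 and lower in members of AY_Y3, and their adjusted p-values in edgeR were 0.912, 0.916 and 0.912. The ER stress list (21 tested) had a median of 0.18 with none separated upward and 1 downward. The NF-kappaB and leukocyte adhesion list (18 tested) had a median of 0.20 with none upward and 2 downward. Its adhesion receptor Icam1 was at 0, 103.2 and 50.2 CPM in members and 22.03, 51.5 and 29.8 in the other cells, and its log2 fold change of -0.56 ± 2.46 had no stable sign. The glucocorticoid list (16 tested) had a median of 0.07, the interferon list (31) of -0.13, the hypoxia list (19) of -0.04, the p53 list (17) of -0.28 and the YAP list (22) of 0.06.

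Promoter windows were read for the 10 early genes named above as higher, of which 8 had a RefSeq entry. The full cyclic AMP response element TGACGTCA, identical on both strands, occurred in 2 of the 8, Dusp1 and Btg2, against 2.03% of 27025 genes with an entry. The CArG box of serum response factor occurred in 1 of the 8, Zfp36, against 1.81%, and the AP-1 site TGANTCA in none of the 8 and in 8.97% of all. A loose NF-kappaB motif, searched on both strands, was found in 6 of the 8 and in 22.9% of all. These are matches of letters and do not show binding. The windows around both full cyclic AMP response elements are printed because of a fit with the leading vessel segment added to the block. Dusp1 and Btg2 were the 2 genes it called higher, with limits that are given below. Both lie upstream of the start on the minus strand, Dusp1 at chr17:26508548-26508675 and Btg2 at chr1:134079254-134079381 (RefSeq, GRCm38.p6, matches in capitals).
Dusp1: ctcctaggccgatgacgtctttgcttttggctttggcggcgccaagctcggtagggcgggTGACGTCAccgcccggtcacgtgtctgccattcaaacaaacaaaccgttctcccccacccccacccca
Btg2: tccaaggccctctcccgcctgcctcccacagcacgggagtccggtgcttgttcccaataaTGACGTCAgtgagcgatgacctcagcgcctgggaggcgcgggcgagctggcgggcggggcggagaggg

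Vessel-segment markers differed between members and other cells. Brain endothelium changes its transcripts along the vessel: arterial cells express Bmx, Hey1 and Efnb2, capillary cells a large set of transporters such as Mfsd2a and Tfrc, and venous cells Nr2f2, Vwf and Slc38a5. For each cell, the mean scaled level of 16 arterial, 12 capillary and 12 venous markers was taken, and the highest of the 3 was its leading segment. This is a range and not a cell type. It is also relative, so arterial markers can lead in a cell because its capillary and venous markers are low. Arterial markers led in 41 of 75 members (54.7%, exact 95% interval 42.7 to 66.2) and in 190 of 670 other cells (28.4%, 24.97 to 31.9). Capillary markers led in 14 members (18.7%, 10.6 to 29.3) and 329 other cells (49.1%, 45.3 to 52.96). Venous markers led in 20 members (26.7%, 17.1 to 38.1) and in 22.5% of the other cells (19.4 to 25.9). These intervals cover counting error over cells only.

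The direction was the same in each set for arterial and capillary markers. Arterial markers led in 52%, 52% and 60% of members in Young1, Young2 and AY_Y3 and in 31%, 30.04% and 24.5% of other cells, a difference of 26.2 ± 8.13 percentage points (SD over 3 sets). Capillary markers led in 16%, 24% and 16% of members and in 47.5%, 48.1% and 51.5% of other cells, a difference of -30.3 ± 5.79 points. The venous difference of 4.19 ± 5.57 points was smaller than its spread, but it was 11.5 ± 4.62 points without cells carrying other cell types' markers and -4.44 with 50 cells per set. With the score lacking heat shock genes the arterial difference was 17.3 points and the capillary one -18.5. The capillary difference was -20.1 points with 50 cells per set, and the arterial one 17.4 without cells carrying other types. An exact two-sided sign-flip test over 3 sets cannot give a p below 0.25, so no test was made of the shares. Read the other way, 17.7% of the arterial-leading cells were members (15.7% to 20.5% in the sets), 11.7% of the venous-leading cells (9.52% to 15.7%) and 4.08% of the capillary-leading cells (3.17% to 5.08%).

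**Figure D3:**
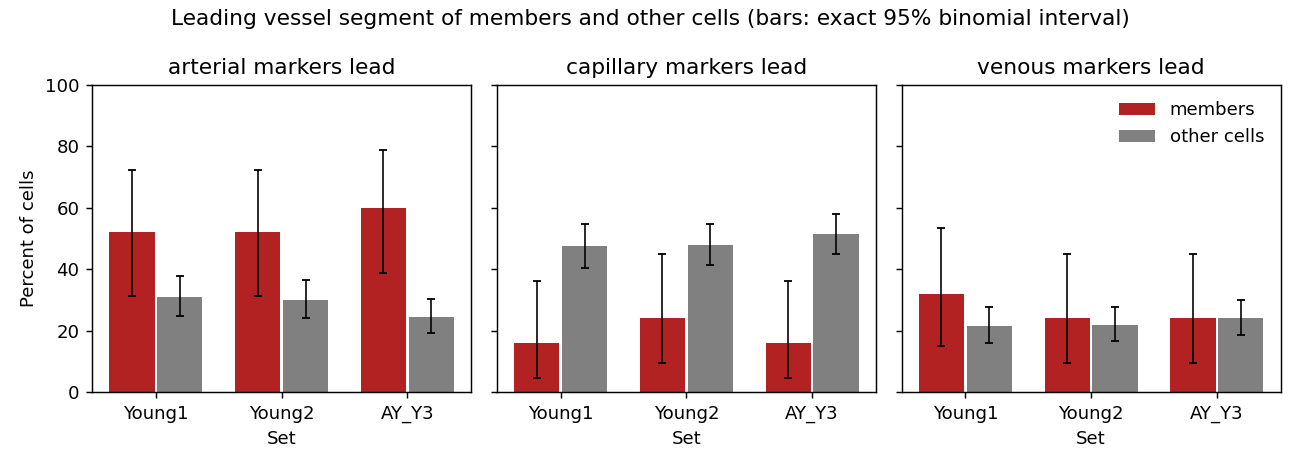
Percent of cells (vertical axis) in which arterial, capillary or venous markers led, for the 25 members (red) and the other cells (grey) of each set, with exact 95% binomial intervals over cells as error bars. Arterial shares of 52% to 60% in members stand above 24.5% to 31% in other cells, and capillary shares of 16% to 24% stand below 47.5% to 51.5%.

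The capillary markers differed more in level than the arterial ones. Summed capillary markers were at 11476, 10162 and 11192 CPM in members and 18296, 18071 and 17836 in the other cells, a log2 ratio of -0.73 ± 0.09 (SD over 3 sets). Of the 12 capillary markers, 11 were separated downward and none upward, with a median log2 fold change of -0.74. Itm2a, an integral membrane protein, was at 5705, 6149 and 5496 CPM in members and 9681, 9413 and 9001 in the other cells. Mfsd2a, the lipid transporter that keeps transcytosis low at the barrier, was at 302, 192.1 and 402 CPM against 588, 485 and 707. Tfrc, the transferrin receptor, was at 36.4, 114.2 and 87.2 CPM against 243.6, 232.7 and 243.1, and had a count in 26.7% of members and 47.8% of other cells. Slc16a1, the monocarboxylate transporter MCT1, was at 103.6, 197.5 and 158.4 CPM against 287, 442 and 417. The exception was Rgcc, a capillary marker at 624, 211.1 and 414 CPM in members and 427, 399 and 468 in the other cells, where the groups overlapped.

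Summed arterial markers hardly differed in level. They were at 1346, 1357 and 1849 CPM in members and 1253, 1306 and 1708 in the other cells, a log2 ratio of 0.09 ± 0.03, and without the heat shock genes in the score the ratio was -0.20. Of 14 tested arterial markers, 1 was separated upward (Stmn2) and none downward. Bmx, an arterial tyrosine kinase, was at 93.3, 115.6 and 63.6 CPM in members and 18.5, 40.8 and 67.1 in the other cells, with a count in 30.7% of members and 14.5% of other cells after thinning. Efnb2, the ligand ephrin-B2, was at 292, 61.4 and 122.1 CPM against 66.7, 55.995 and 33.04, with 41.3% of its counts in members from a single cell. Gkn3, a marker of arterial endothelium, was at 8.91, 63.3 and 56.6 CPM against 41.3, 25.4 and 60.7, and Hey1, a Notch target, at 165.4, 106.2 and 82.6 against 157.7, 141.95 and 129.2. The direction of Gkn3 and Hey1 was not stable over the alternatives. Mgp, matrix Gla protein, was lower in all 3 sets, at 89.6, 257.2 and 468 CPM against 272, 342 and 712.

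The venous markers gave no common direction: of 10 tested, none was separated upward and 1 downward, with a median log2 fold change of -0.14. Slc38a5, a glutamine transporter, was at 264, 525 and 426 CPM in members and 636, 673 and 747 in the other cells. Nr2f2, the venous identity factor COUP-TFII, was at 32.8, 99.99 and 12.4 CPM against 48.9, 66.8 and 37.7. Vwf, von Willebrand factor, was at 140.2, 594 and 57.97 CPM against 176.7, 278 and 281, with 35.3% of its counts in members from a single cell. Nr2f2 and Vwf were higher in members of Young2 and lower in the other 2 sets.

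**Figure D4:**
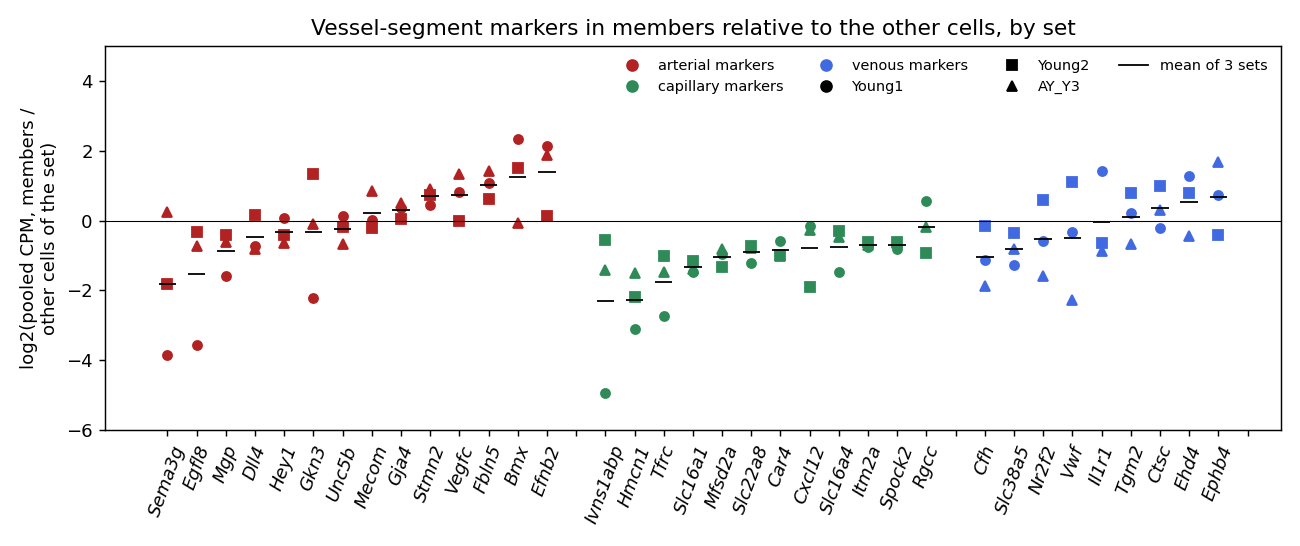
Log2 ratio of pooled CPM in members to the other cells of the same set (vertical axis) for each tested arterial, capillary and venous marker with a count in all 6 sums (horizontal axis), 1 symbol per set, with the mean of 3 sets as a black line. Capillary markers other than Rgcc lie below 0 in all 3 sets, while arterial and venous markers lie on both sides.

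Part of the transporter and barrier genes was separated downward in members. Of 46 tested barrier and transport genes, 19 were separated downward and 3 upward (Jam2, Slc6a6 and Ptrf), with a median log2 fold change of -0.44. Leaving out the 5 genes of this list that are capillary markers too, 14 of 41 were separated downward and the median was -0.39. Bsg, basigin, a chaperone of monocarboxylate transporters, was at 11744, 11119.6 and 11742 CPM in members and 18604, 17849 and 17404 in the other cells, a log2 fold change of -0.50 ± 0.08 with an adjusted p of 0.613 in edgeR. Slco1c1, a thyroid hormone and organic anion carrier, was at 382, 829 and 937 CPM against 1243, 1634 and 1666. Slc7a5, the large neutral amino acid carrier LAT1, was at 146.2, 188.6 and 168.98 CPM against 367, 305 and 372, and Slc7a1, a cationic amino acid carrier, at 183.6, 205.4 and 248.8 against 359.8, 377 and 487. Apcdd1, a target of the Wnt signal that maintains the barrier, was at 54.7, 76.1 and 73.4 CPM against 155.4, 182.8 and 178.2. These 5 genes were named after their values were seen.

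The barrier genes differed among themselves. Cldn5, the main claudin of endothelial tight junctions, was at 2631, 2179.6 and 3319 CPM in members and 3608, 3131 and 3951 in the other cells. It was lower in members within each set, although the groups overlapped between sets, and its log2 fold change was -0.27 ± 0.11 (adjusted p = 0.87 in edgeR). Slc2a1, the glucose transporter GLUT1, was at 5372, 7125 and 11224 CPM against 8599, 8865 and 10838, and was higher in members of AY_Y3. Pecam1, an adhesion molecule of all endothelium, was at 743, 992 and 1162 CPM against 722, 796 and 888. Slc6a6, the taurine transporter, was separated upward at 3844, 4339.9 and 4569 CPM against 3095, 2859.7 and 2529, and Ptrf, a coat protein of caveolae, at 2479, 2379.6 and 2537 against 1993, 1725 and 1921. Slc6a6 and Ptrf were named after their values were seen.

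Other genes separated upward included several that were concentrated in arterial-leading cells. The following were also named after their values were seen. Cdh13, T-cadherin, was at 411, 587 and 434 CPM in members and 134.2, 134.996 and 148.1 in the other cells. Nov, a matricellular protein, was at 197.5, 345 and 165.9 CPM against 59.6, 125.7 and 45.7, with 33.2% of its counts in members from a single cell. Timp3, an inhibitor of metalloproteases, was at 1226, 1860.2 and 3035 CPM against 851, 1137 and 1169. Members whose leading segment was capillary or venous had no count of Cdh13 or Nov in any set. Cd9, a tetraspanin, was at 1095, 714 and 976 CPM in members against 372, 307 and 325. P2ry2, a receptor for extracellular nucleotides, was at 247.5, 257.8 and 204.5 CPM against 47.4, 73.9 and 40.9.

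Members and other cells were also compared within the same leading segment. Each set and segment gave a pair of sums, 9 in all, with 4 to 15 members against at least 43 other cells. Btg2 and Ier2 were higher in members in 9 of 9 pairs, Dusp1, Adamts1, Apold1 and Zfp36 in 8, and Gadd45g and Nr4a2 in 7. In arterial-leading cells Ier2 was at 1346, 260.7 and 269 CPM in members and 329.7, 218.4 and 212.9 in the other cells. In capillary-leading cells it was at 1475, 383 and 285 CPM against 289.5, 256.5 and 140.4. The exception for Dusp1 was the capillary-leading cells of AY_Y3, at 434 CPM in 4 members and 454 in the other cells. Cdh13 and Nov were higher in members in the 3 arterial pairs, and in the other pairs, where members had no count and other cells at most 72.5 CPM of Cdh13 and 14.1 of Nov, 4 to 8 members were too few for a comparison. Timp3 was higher in 9 of 9 and Slc6a6 in 6 of 9. The differences of Timp3 were uneven. In AY_Y3 it was at 692 against 689 CPM in capillary-leading cells and at 1243 against 415 in venous-leading cells.

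The genes that were lower in members were lower in most pairs as well. Plat was higher in members in 0 of 9 pairs, Itm2a and Bsg in 1, Slco1c1 in 2 and Slc7a1 in 3. Itm2a is itself a capillary marker used to assign the leading segment, so its pairs are not independent of that grouping. In arterial-leading cells Bsg was at 7761, 7968 and 8815 CPM in members and 14754, 14203 and 12886 in the other cells. In capillary-leading cells it was at 19117, 22973 and 19468 CPM against 22309, 20682 and 20570.5, where the groups overlapped. The ratio of members to other cells was lower among arterial-leading than among capillary-leading cells in all 3 sets, a difference that was not tested. With set and leading segment together as the block, edgeR called 2 of 8641 genes higher (percent called 0.0231), Dusp1 with a log2 fold change of 1.37 (adjusted p = 0.0181) and Btg2 with 1.44 (adjusted p = 0.0271), and 1.38% lower. In that fit the median log2 fold change over all genes was -1.53, and some of its sums held 4 cells. The segments of a set entered it as separate blocks although they are not independent replicates. Its adjusted p-values therefore overstate the evidence from 3 sets.

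Members with and without a count of Fos or Egr1 differed in ways that varied from gene to gene. In Young2 and AY_Y3, which hold 17 of the 18, Ier2 was at 731 and 331 CPM in members with Fos or Egr1, 319 and 219.5 in members without, and 220.7 and 163.3 in other cells. Bsg was at 9225 and 8582 CPM in members with Fos or Egr1, 17512 and 14873 in members without, and 17849 and 17404 in other cells. Adamts1 was at 577 and 795 CPM, then 43.8 and 231.5, then 199.3 and 68.4. Other genes did not follow this order. Dusp1 was at 1367 and 1739 CPM in members with Fos or Egr1 and 1716 and 782 in members without, and Btg2 at 1080.1 and 472 and at 1117 and 338. Nr4a2 was at 256.2 and 261.3 CPM with and 129.5 and 397 without. Ier3, a score gene, was higher in those without in both sets, at 697 and 674 CPM against 444 and 391. Members without Fos or Egr1 could reach their rank only through the other score genes, so the selection itself favours a higher Ier3 in them. Arterial markers led in 34 of the 57 members with Fos or Egr1 and in 7 of the 18 without, and capillary markers in 6 and 8. This division was made after values were seen and is given as a description.

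Along the score, Ier2, Dusp1, Btg2, Zfp36, Gadd45g and Nr4a2 were higher in members than in the next 25 cells in all 3 sets, while the capillary marker Itm2a was as low in the next 25 cells of Young2 as in its members and lay between members and later ranks in the other sets. Ier2 was at 303, 268 and 196.99 CPM in ranks 26 to 50 of Young1, Young2 and AY_Y3, and at 287, 214.9 and 144.6 in the ranks beyond 100. Dusp1 was at 1531, 601 and 583 CPM in ranks 26 to 50 and 1109, 542 and 424 in the ranks beyond 100. Zfp36 was at 103.7, 63.4 and 92.6 CPM in ranks 26 to 50, beside 708, 396 and 123.9 in members. Adamts1 was at 42.8 and 67.5 CPM in ranks 26 to 50 of Young1 and AY_Y3, but at 463 in Young2, no lower than the 455 of its members. Itm2a was at 7879.9, 6144 and 7884 CPM in ranks 26 to 50, 9648, 8521 and 9575 in ranks 51 to 100, and 10129.7, 10426 and 9007 beyond rank 100. Arterial markers led in 56% and 52% of ranks 26 to 50 in Young1 and Young2, close to the share in members, and in 32% in AY_Y3. Beyond rank 100 they led in 25.6%, 24.1% and 20.4%.

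**Figure D5:**
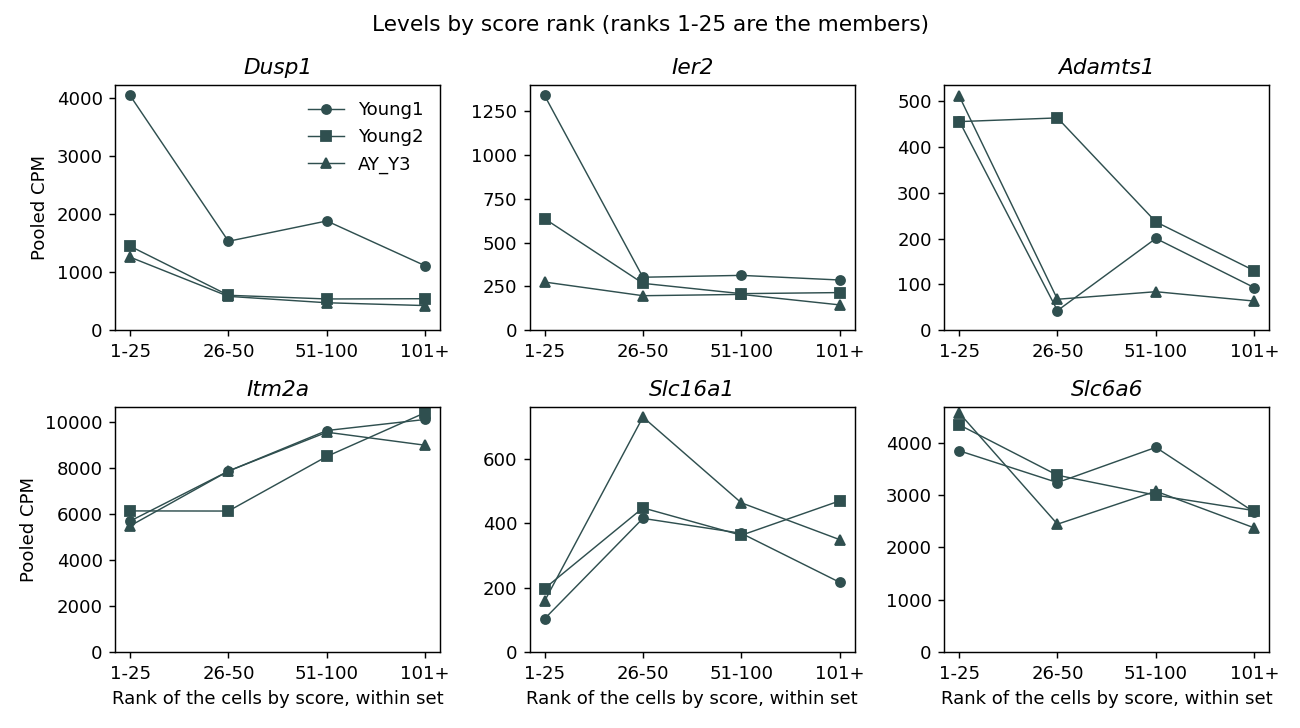
Pooled CPM (vertical axis, from 0) of 6 genes in cells grouped by score rank within each set (horizontal axis: ranks 1 to 25, 26 to 50, 51 to 100, and beyond 100), 1 line per set. Ier2 stands at 1341, 637 and 275 CPM in members and 303, 268 and 196.99 in the next 25 cells, while Itm2a stands at 5496 to 6149 CPM in members and 9007 to 10426 in the lowest ranks.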

How the data were processed

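The authors deposited whole-number read counts per gene symbol for 20607 symbols, with no normalization. Per the submitters' processing notes, Bowtie 0.12.2 was used with the builds mm8 and mm10, whose roles are not told apart. The counting tool, the annotation and the strand setting are not stated there. Counts carry no molecular identifiers, so intervals cover counting error only. Cells held 52819 to 2421434 counts, none was left out, no 2 cells were identical, and no doublet caller was run.

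Sets were taken from the cell titles. CPM and the score were computed per cell, and counts were summed per set for members and other cells (6 sums). Genes had to pass edgeR's filter on low counts and have a count in at least 5% of cells. The fit used edgeR 4.0.16 (R 4.3.3), TMM scaling and a block for the set, because every set gives both groups, with Benjamini-Hochberg adjustment at 0.05. It was tested on simulated data, where 5 of 9054 unchanged genes were called. DESeq2 1.42.0 and limma 3.58.1 were alternatives. Thinning drew 50000 counts a cell with a fixed seed. Named genes were 8 segment markers, 14 barrier, early and chaperone genes, and up to 10 early genes a direction with the smallest unadjusted p under 0.05. All others were named after their values were seen. Members and lists were chosen with earlier results of these data known.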

Additional observations from a re-analysis of the deposited data

How the results depend on the processing

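With the set as a replicate block, edgeR called 0 genes, and without the replicate block it also called 0 (678 genes at an unadjusted p under 0.05, against 533). It called 0 higher and 0 lower with each set left out in turn, with other library scaling, filters, thinning, member numbers and scores, and without cells carrying other cell types. The exceptions were DESeq2 (350 higher, 564 lower, or 3.79% and 6.11%), limma on mean log2 values (44 and 36, or 0.477% and 0.39%, median over all genes 0.04) and the block of set and leading segment (2 higher, which is 0.0231% of the genes in that fit, and 1.38% lower). The segments of a set are separate blocks in the last of these but not independent replicates. With each set left out, the arterial difference ranged from 21.5 to 28.7 percentage points and the capillary difference from -33.5 to -27.8. With 50 cells per set the capillary difference was -20.1 points, the venous one -4.44, the log2 ratio of summed arterial markers 0.24 and that of capillary markers -0.48. With the score lacking heat shock genes, which kept 58 members, the arterial difference was 17.3 points, the capillary one -18.5, the summed arterial ratio -0.20 and the capillary one -0.47. Without cells above 2000 CPM on another cell type's markers, the arterial difference was 17.4 points, the venous one 11.5, the arterial ratio 0.060 and the capillary ratio -0.60. With Clu not counted there, an alternative chosen after seeing the data, the arterial ratio was 0.040 and the arterial difference 23.98 points. With the 75 highest cells over all sets, also chosen after seeing the data, the arterial ratio was 0.30. The score on thinned counts kept 70 members. The causes of these shifts were not tested.

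Log2 fold changes of single genes changed sign, and the following are examples and not a full list. With set and leading segment as the block, Bmx was at -3.46, and several other genes named as higher were also below 0. These included Efnb2 (-5.16), Cdh13 (-4.31), Stmn2 (-2.53), Nov (-2.12), S100a6 (-0.97), Cd9 (-0.80) and Prune2 (-0.35). Lmna (1.24), Plec (0.95), Timp3 (0.53) and P2ry2 (0.34) stayed above 0. The median over all genes in that fit was -1.53. Gkn3 was at 0.14 without the replicate block, -1.02 to 0.74 with each set left out (0.74 without Young1), 0.13 after thinning, 0.42 with 50 cells per set and 0.48 in limma. Hey1 was at 0.33 with 50 cells per set, 0.11 without cells carrying other types and 0.23 in limma. Nr2f2 was at 0.043 without the replicate block and -0.95 to 0.11 with each set left out, and Vwf at 0.22 and -1.17 to 0.49, both highest without AY_Y3. Icam1 was at 0.70 without the replicate block, -4.01 to 1.01 with each set left out (1.01 without Young1), 0.16 after thinning and 0.38 in limma. With 25 members a set, genes found in few cells rest on few cells, and low counts limit what these sums can show.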

Other observations

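Further genes stood apart between members and other cells in all 3 sets. They were picked by their values and belong to no test. Prune2 was at 475, 371 and 329 CPM in members of Young1, Young2 and AY_Y3 and 124.7, 87.3 and 53.6 in the other cells. S100a6, a calcium-binding protein, was at 123.1, 89.1 and 77.9 CPM against 18.1, 21.2 and 18.4, and Lmna, which encodes lamins A and C of the nuclear envelope, at 388, 624 and 694 against 239.8, 171.97 and 210.9. Plec, the cytoskeletal linker plectin, was at 1265, 740.4 and 1231 CPM against 577, 339 and 415. Pi16, a peptidase inhibitor, was at 117.3, 211.1 and 276 CPM against 60.1, 25.3 and 53.4.

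Among genes lower in members, Kdr, the receptor VEGFR2, was at 134.9, 96.9 and 160.5 CPM against 383, 437 and 381, while Flt1, the receptor VEGFR1, overlapped at 1624, 2314 and 2015 CPM against 2444, 2632 and 2231. Kdr and Flt1 are on the list of endothelial markers summed above. Ddc, aromatic L-amino acid decarboxylase, was at 37.2, 90.8 and 55.7 CPM against 292, 266 and 338. Gatm, an enzyme of creatine synthesis, was at 496, 787 and 619.6 CPM against 1174, 1340.05 and 1278, and Pglyrp1, a peptidoglycan recognition protein, at 702, 936 and 766 against 1503, 1453 and 1612.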
